A study of Mus musculus with 6 samples.

Results

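The matrix metalloproteinase (MMP), ADAMTS, ADAMTS-like (ADAMTSL) and TIMP genes were followed in cultured mouse bone marrow stromal cells with and without the long non-coding RNA NONMMUT002667. The 4 families were chosen with earlier results of these data known. Members were then taken by name, as every probe whose gene name in the array's annotation begins with one of the 4 family names and a number. This gave 103 probes for 51 genes, among 56605 probes on the array, which carry the names of 24813 RefSeq genes. The 51 genes comprised 23 MMP, 19 ADAMTS, 5 ADAMTSL and 4 TIMP genes.

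The knockout (KO) group held 3 samples from mice lacking the NONMMUT002667 gene, and the wild-type (WT) group held 3 samples from control mice. In both groups, cells from collagenase-digested femurs were sorted as Sca-1+ CD29+ CD45- CD11b- and expanded after the first passage. Each sample was labelled with Cy3 and hybridised to its own Agilent array. The labels call all 6 samples male and give no strain, age or description of the deleted allele, and they do not say how many animals a sample held. The p-values below therefore measure the spread between these 6 samples, which may be partly technical.

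Several features of the arrays touch every result below. The share of spots well above background was 49.0% to 53.02% on KO arrays and 54.29% to 56.68% on WT arrays. Relative to each array's 75th percentile, the lowest log2 signal well above background was -4.15 to -3.60 on KO arrays. On WT arrays it was -4.62 to -4.41, so background lay higher on KO arrays on this scale. All 6 arrays lay on 1 slide, with the KO arrays in its row 2 and the WT arrays in its row 1, so slide row and genotype cannot be told apart. None of the spots (0) carried a NONMMUT name, so the deletion was not checked on its target. Xist, the RNA of the inactive X chromosome in females, gave a signal on KO replicate 1 (-0.36) and WT replicate 3 (-0.53), against the male label, and Eif2s3y, a gene of the Y chromosome, gave none on these arrays. Results are given with and without this pair of arrays where the text turns on them. Of the sort markers, Ly6a (Sca-1) and Itgb1 (CD29) were above background on all 6 arrays. All 10 macrophage and monocyte markers were above background on all 6 arrays as well, although the sort excluded CD11b+ and CD45+ cells. On a linear scale relative to the same percentile, they summed to 969 to 1009.5 on KO arrays and 905 to 917 on WT arrays. The 6 stromal progenitor markers, which include Ly6a and Itgb1, summed to 68.3 to 79.6 on KO arrays and 72.6 to 76.5 on WT arrays. Probes differ in brightness, so these sums do not give shares of cells, and the share of macrophages was not tested. In such bulk samples, fewer cells of a type and less RNA per cell cannot be told apart.

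MMPs are zinc-dependent endopeptidases made as inactive precursors that, once activated, cleave collagens, other matrix proteins and signalling proteins. ADAMTS enzymes are secreted relatives with thrombospondin repeats that trim procollagens or cut large proteoglycans, and ADAMTSL proteins share the repeats but lack the protease domain. TIMPs are secreted proteins that bind the active site of metalloproteinases and block it. In bone, these enzymes are known for the turnover of collagen matrix by osteoblasts, osteoclasts and hypertrophic chondrocytes.

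Testing required a probe well above background in all 3 samples of KO, of WT or of both, and 31 of the 51 genes had one. By family these were 13 of 23 MMP genes, 11 of 19 ADAMTS genes, 4 of 5 ADAMTSL genes and 3 of 4 TIMP genes. A further 5 genes were above background on some arrays without meeting the rule: Mmp1a, Mmp10, Adamts17, Adamts18 and Adamtsl2. The remaining 15 were not well above background on any array: Mmp1b, Mmp3, Mmp7, Mmp15, Mmp20, Mmp21, Mmp24, Mmp25, Adamts3, Adamts8, Adamts13, Adamts16, Adamts19, Adamts20 and Timp4. Among them are the stromelysin gene Mmp3, the matrilysin gene Mmp7 and the gene of Adamts13, which cleaves von Willebrand factor. Each of these 15 genes has a bound only, set by the background of the array.

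**Figure D1:**
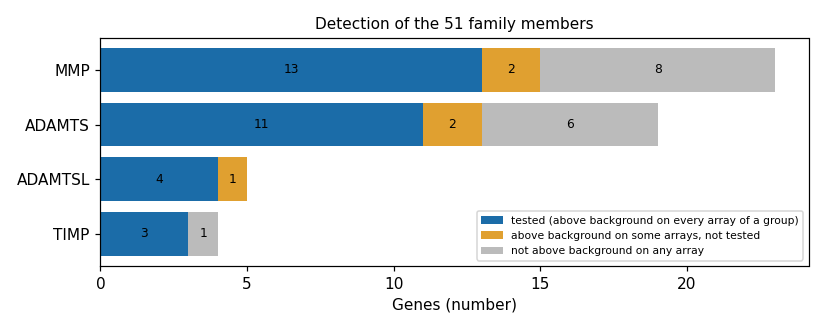
Number of genes (x axis) in each family (rows), split by detection on the 6 arrays. Of 51 genes, 31 were tested, 5 were above background on some arrays only and 15 on none.

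Each value below is a log2 signal from which its array's 75th percentile was subtracted, so that 0 is the level of that percentile. A gene is represented by its brightest tested probe. Levels of different probes cannot be compared with each other, because probes differ in brightness. Differences are KO minus WT on this log2 scale. With limma and Benjamini-Hochberg adjustment over all 28607 tested probes, 0 of the 31 member genes and 0 of the 46 tested member probes passed an adjusted p of 0.05, where 0.0817% of all 14681 tested genes and 0.0594% of all tested probes passed. The lowest limma adjusted p among members was 0.0593, for Adamts15 and equally for a dimmer probe of Adamts2 that does not represent its gene. At an unadjusted limma p under 0.05, 10 of the 31 genes read lower in KO, against 8.17% of all tested genes, and 3 of 31 read higher, against 6.59%. For 10 genes every KO value lay below the WT values, against 10.6% of all tested genes, and for 3 every KO value lay above them, against 11.8%. The 10 genes differ from the 10 by unadjusted p only in holding Mmp23 in place of Adamts9, and the 3 genes are the same, Mmp12, Mmp19 and Adamts1. Of the 46 member probes, 14 read lower and 5 higher at this unadjusted p, against 7.28% and 8.24% of all tested probes. A negative difference was found for 23 of the 31 genes, against 44.6% of all tested genes. The median difference was -0.28 over the 31 members and 0.02 over all tested genes. By family it was -0.17 for MMP, -0.34 for ADAMTS, -0.25 for ADAMTSL and -0.31 for TIMP genes. A rule that admits genes seen in only 1 group favours differences. Of the 27 members whose brightest probe was above background on all 6 arrays, 9 read lower and 3 higher at an unadjusted limma p under 0.05, against 7.26% and 6.86% of such genes.

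**Figure D2:**
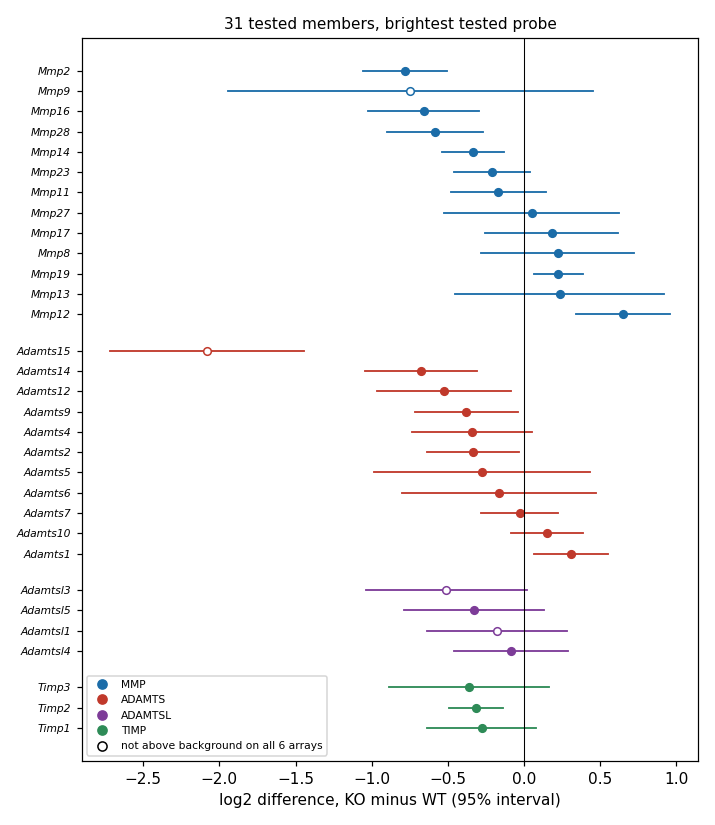
Difference in log2 signal, KO minus WT, for each tested member (rows) by family, with the 95% interval from limma (n = 3 arrays a group). Open circles mark members not above background on all 6 arrays. The 23 negative and 8 positive differences run from -2.08 for Adamts15 to 0.65 for Mmp12.

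The gelatinase MMP2, its activator MMP14 and the inhibitor TIMP2 form a well-known assembly: TIMP2 tethers the MMP2 precursor to MMP14 at the cell surface, where it is activated. All 3 genes had KO values below every WT value, where 10.6% of all tested genes did, and none of them passed the adjusted threshold. Mmp2 read 2.86, 2.48 and 2.67 on the KO arrays, against 3.54, 3.38 and 3.43 on the WT arrays (probe at chr8:95376840-95376899, mm9). The groups were separated by a gap wider than the spread within either of them. The difference was -0.78 (SE 0.11), a KO level 0.582 times that of WT (limma adjusted p = 0.0691). It was -0.89 without KO replicate 1 and WT replicate 3 (limma adjusted p = 0.145).

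Mmp14, which encodes the membrane-anchored collagenase MT1-MMP, read 1.00, 0.86 and 0.94 on the KO arrays, against 1.29, 1.16 and 1.35 on the WT arrays (chr14:55058775-55058834, mm9). The groups did not overlap, and the difference was -0.34 (SE 0.09, limma adjusted p = 0.153). Timp2 read 6.55, 6.56 and 6.59 on the KO arrays, against 6.81, 6.87 and 6.96 on the WT arrays (chr11:118163146-118163205, mm9). Its 3 KO arrays lay within 0.04 of each other, and the difference was -0.31 (SE 0.07, limma adjusted p = 0.131). A second Timp2 probe had overlapping groups and a difference of -0.14 (SE 0.13, limma adjusted p = 0.642).

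Mmp9 encodes the other gelatinase, known from osteoclasts and neutrophils. It read -5.20, -3.83 and -3.39 on the KO arrays, against -3.99, -2.82 and -3.36 on the WT arrays (chr2:164780620-164780679, mm9). The signal was close to background, being well above it on 2 of 3 KO arrays and on all WT arrays, and the groups overlapped. The difference of -0.75 had an SE of 0.50 and a 95% interval from -1.95 to 0.45 (limma adjusted p = 0.538). It was -0.22 without KO replicate 1, the lowest array, -0.46 without WT replicate 2, -1.12 without KO replicate 3, and -0.20 without both arrays with Xist signal. Its other probe was above background on 1 KO array and 2 WT arrays and was not tested. Of 7 osteoclast markers 6 were tested, 2 with a negative and 4 with a positive difference. At an unadjusted limma p under 0.05, 1 read lower and 2 higher, against 8.17% and 6.59% of all tested genes, and 0 passed after adjustment.

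The osteoblast markers differed in the same direction as Mmp2, Mmp14 and Timp2. All 8 were above background on all 6 arrays and had a negative difference, against 44.6% of all tested genes, with a median of -1.49. At an unadjusted limma p under 0.05 all 8 read lower in KO, against 8.17% of all tested genes. After adjustment 1 passed limma, Ibsp (-1.73, adjusted p = 0.0496), against 0.0817% of all tested genes. The summed level of the 8 markers, on a linear scale relative to the 75th percentile, was 139 to 230 on KO arrays and 360 to 398 on WT arrays. Mmp13, also made by osteoblasts, did not share this direction, with a difference of 0.23 and overlapping groups. Of the tendon and fibroblast markers, Scx and Dcn had differences of -1.11 and -1.05, and Lum, not above background on any KO array, was at least 2.12-fold lower in KO, while the 6 stromal progenitor markers had a median of -0.04. The part of such shifts in the metalloproteinase values was not tested.

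**Figure D3:**
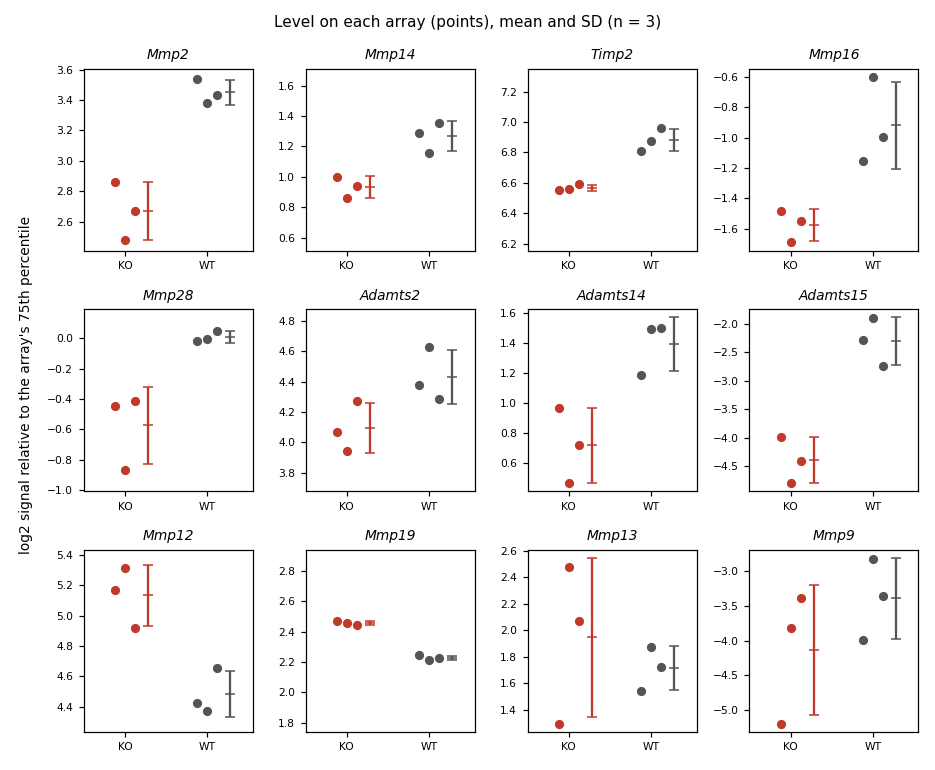
Log2 signal minus its array's 75th percentile (y axis, own range for each panel, at least 1.2 units) for 12 members on the 3 KO and 3 WT arrays (points), with mean and SD. KO and WT points do not overlap for Mmp2, Mmp14, Timp2, Mmp16, Mmp28, Adamts2, Adamts14 and Adamts15 (KO below) or for Mmp12 and Mmp19 (KO above), and overlap for Mmp13 and Mmp9. Of all tested genes, 10.6% had every KO value below the WT values and 11.8% had every KO value above them.

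Of the secreted collagenases, which open the triple helix of fibrillar collagen, Mmp13 and Mmp8 were tested, and both had overlapping groups. Mmp13, made by osteoblasts and hypertrophic chondrocytes, read 1.30, 2.47 and 2.07 on the KO arrays, against 1.54, 1.87 and 1.72 on the WT arrays (chr9:7282762-7282821, mm9). The KO arrays spanned the whole WT range and lay on both sides of it. The difference was 0.23 (SE 0.29, 95% interval -0.45 to 0.92, limma adjusted p = 0.755), and it turned to -0.03 once KO replicate 2 was left out and was 0.56 once KO replicate 1 was. Mmp8, the neutrophil collagenase, read 1.26, 1.65 and 0.77 on the KO arrays, against 0.92, 1.02 and 1.07 on the WT arrays. Its difference was 0.22 (95% interval -0.28 to 0.73, limma adjusted p = 0.675), and it was 0.01 when KO replicate 2 was dropped and 0.45 when KO replicate 3 was. The neutrophil markers had differences of either sign, 2 negative and 3 positive among the 5 tested.

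Mmp13, Mmp12 and Mmp8 belong to a cluster of MMP genes. By the array's mm9 probe positions, 10 MMP genes lay between 7282762 and 7699535 on chromosome 9, in the order Mmp13, Mmp12, Mmp1b, Mmp3, Mmp1a, Mmp10, Mmp8, Mmp27, Mmp20 and Mmp7. Only 4 of the 10 were tested, and they were interspersed with genes that were not tested: Mmp13 and Mmp12 at one end, and Mmp8 and Mmp27 further along. Mmp27, a little studied member, had a difference of 0.05 with overlapping groups (95% interval -0.52 to 0.62, limma adjusted p = 0.946).

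RefSeq upstream sequences (GRCm38.p6) were at hand for 36 of the 51 members, including the 10 genes of this cluster. Mmp2, Mmp9, Mmp16, Mmp17 and Mmp19 were among the members without such a sequence and were not searched. The sequences at hand were searched over 250 bases before the start, on both strands, for 3 motifs long associated with MMP genes. The letters of AP-1, a factor induced by growth and stress signals, were TGANTCA. Those of RUNX, the family of a master factor of osteoblasts, were TGTGGT. Those of the TATA box, a core promoter element, were TATAAA. The matches in the members did not overlap each other. AP-1 letters were found for 8 of the 10 cluster genes and for 0 of the 26 other members, where 6.75% of all 32851 RefSeq windows hold them. TATA letters were found for 7 of the 10 cluster genes and 3 of the 26 others, where 12.4% of all windows hold them. A gene was counted if any of its listed windows matched, while the shares are per window. The following windows, 5′ to 3′ with matches in capitals (on either strand, so that RUNX letters can appear as ACCACA), show that AP-1 and TATA letters occurred alike upstream of Mmp13, which was well above background on all 6 arrays, and of Mmp3, which was so on none. Mmp12 has a second listed start with no match, and Mmp8 has none of the 3 motifs in its window. The windows are chr9:7272264-7272513 for Mmp13, chr9:7445572-7445821 for Mmp3, chr9:7347124-7347373 for Mmp12 and chr9:7558179-7558428 for Mmp8, all on the plus strand.
Mmp13: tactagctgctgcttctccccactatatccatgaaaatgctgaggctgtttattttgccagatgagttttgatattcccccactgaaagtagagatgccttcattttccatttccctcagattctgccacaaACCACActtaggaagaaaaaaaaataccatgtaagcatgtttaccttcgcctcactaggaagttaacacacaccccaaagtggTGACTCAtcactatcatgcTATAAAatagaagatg
Mmp3: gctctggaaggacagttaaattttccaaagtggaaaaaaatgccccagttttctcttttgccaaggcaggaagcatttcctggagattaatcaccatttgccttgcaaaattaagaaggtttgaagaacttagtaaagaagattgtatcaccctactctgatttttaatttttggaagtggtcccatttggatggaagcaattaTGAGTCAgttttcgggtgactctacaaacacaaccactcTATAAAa
Mmp12: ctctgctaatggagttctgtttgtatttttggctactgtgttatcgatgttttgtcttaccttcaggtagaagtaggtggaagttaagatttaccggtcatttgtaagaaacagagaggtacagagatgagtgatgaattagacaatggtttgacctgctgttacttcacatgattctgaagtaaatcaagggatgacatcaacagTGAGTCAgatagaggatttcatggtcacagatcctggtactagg
Mmp8: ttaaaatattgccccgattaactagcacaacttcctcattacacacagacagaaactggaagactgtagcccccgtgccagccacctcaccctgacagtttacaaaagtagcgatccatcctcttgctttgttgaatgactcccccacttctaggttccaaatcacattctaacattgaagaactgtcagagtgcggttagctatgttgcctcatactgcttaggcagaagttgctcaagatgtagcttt

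In the Mmp13 window the AP-1 letters began 35 bases, the TATA letters 16 bases and the RUNX letters 118 bases before the start. In the Mmp3 window the AP-1 letters began 46 bases and the TATA letters 7 bases before it. Upstream of Mmp14 (chr14:54431348-54431597, plus strand) RUNX letters were found 114 bases before the start, as in 14.0% of all windows, and upstream of Timp2 (chr11:118355412-118355661, minus strand) none of the 3 motifs. These windows are shown because both genes had KO values below all WT values. Mmp23, Mmp28, Adamts2, Adamts12 and Adamts14 also had a window and such values by their brightest probe. Of these genes only Mmp23 had RUNX letters, and none had AP-1 or TATA letters. Over all 36 members with a window, 6 had RUNX letters.
Mmp14: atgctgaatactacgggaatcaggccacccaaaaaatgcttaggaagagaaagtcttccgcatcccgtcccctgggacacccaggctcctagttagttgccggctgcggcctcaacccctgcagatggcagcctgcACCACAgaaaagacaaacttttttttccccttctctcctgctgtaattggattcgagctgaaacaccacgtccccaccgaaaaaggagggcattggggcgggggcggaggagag
Timp2: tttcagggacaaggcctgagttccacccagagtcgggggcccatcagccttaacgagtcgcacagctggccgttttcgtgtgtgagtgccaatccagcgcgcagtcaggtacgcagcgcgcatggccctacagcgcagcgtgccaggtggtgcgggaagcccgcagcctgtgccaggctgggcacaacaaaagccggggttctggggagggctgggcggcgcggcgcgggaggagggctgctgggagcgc

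Mmp12 had the largest positive difference of the 4 families. It encodes the elastase of macrophages and read 5.17, 5.31 and 4.92 on the KO arrays, against 4.43, 4.37 and 4.65 on the WT arrays (chr9:7358559-7358618, mm9). All KO values lay above the WT values, and the difference was 0.65 (SE 0.13), a KO level 1.57 times that of WT (limma adjusted p = 0.0992). Both other Mmp12 probes gave the same picture, with differences of 0.62 and 0.56 and no overlap between groups (limma adjusted p = 0.165 and 0.214). Without KO replicate 1 and WT replicate 3 the difference was 0.72 (limma adjusted p = 0.241).

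Mmp19, which encodes a broadly expressed secreted MMP, read 2.47, 2.45 and 2.44 on the KO arrays, against 2.24, 2.21 and 2.23 on the WT arrays (chr10:128237761-128237820, mm9). The arrays of each group lay very close together and the groups were apart, by a small difference of 0.23 (SE 0.07, limma adjusted p = 0.192). A dimmer Mmp19 probe had overlapping groups and a difference of 0.25 (SE 0.20).

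Macrophage markers are given beside these genes. The summed level of the 10 macrophage and monocyte markers was 969 to 1009.5 on KO arrays and 905 to 917 on WT arrays. The largest term of this sum, Lyz2, had overlapping groups. Of the 10 markers, 2 (C1qa and C1qb) had a negative difference, against 44.6% of all tested genes, and the median was 0.12. After adjustment 0 passed limma, and 1, Cd14, read higher at an unadjusted p under 0.05, against 6.59% of all tested genes. Their part in the Mmp12 and Mmp19 values was not tested.

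Of the MMP genes not yet described, Mmp16, Mmp28 and Mmp23 had separated groups, each with the KO values below. Mmp16, which encodes a membrane-type MMP that can also activate MMP2, read -1.48, -1.69 and -1.55 on the KO arrays, against -1.16, -0.60 and -0.997 on the WT arrays (chr4:18044545-18044604, mm9). Every KO value lay below the WT values, by -0.66 (SE 0.15, limma adjusted p = 0.128). Mmp28, which encodes the secreted MMP epilysin, read -0.44, -0.87 and -0.41 on the KO arrays, against -0.02, -0.01 and 0.05 on the WT arrays (chr11:83261064-83261123, mm9). The WT arrays were nearly equal and the KO arrays all lay below them, by -0.58 (SE 0.13, limma adjusted p = 0.125). The other Mmp28 probe, designed to a different transcript, was not above background on any array.

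Mmp23, a membrane-bound member, had a small difference of -0.21 (SE 0.10, limma adjusted p = 0.404). Mmp11, which encodes stromelysin-3, had a difference of -0.17 (95% interval -0.48 to 0.14, limma adjusted p = 0.595). This was -0.03 without KO replicate 1 and -0.05 without both arrays with Xist signal, but -0.24 without KO replicate 2. Mmp17, which encodes a GPI-anchored member, had 0.18 (95% interval -0.26 to 0.62, limma adjusted p = 0.697). The groups of Mmp11 and Mmp17 overlapped.

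The procollagen N-proteinases remove the amino-terminal propeptide of fibrillar procollagens before fibrils form. Adamts2 and Adamts14 were tested and Adamts3 was not above background. All 5 of their tested probes had every KO value below the WT values, where 9.57% of all tested probes did. Adamts14 read 0.97, 0.46 and 0.72 on the KO arrays, against 1.19, 1.49 and 1.50 on the WT arrays (chr10:60659860-60659919, mm9). The difference was -0.68 (SE 0.15, limma adjusted p = 0.124), and a neighbouring probe had -0.81 (SE 0.21, limma adjusted p = 0.156).

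Adamts2 read 4.07, 3.94 and 4.27 on the KO arrays, against 4.38, 4.63 and 4.29 on the WT arrays (chr11:50617472-50617531, mm9). These groups nearly touched, and the difference by this bright probe was -0.34 (SE 0.13, limma adjusted p = 0.282). At a much dimmer probe further 5′ on the plus strand (chr11:50590188-50590247) the arrays read -3.05, -3.14 and -3.02 in KO, against -2.45, -2.50 and -2.53 in WT. There the groups were far apart for their spread, with a difference of -0.58 (SE 0.07, limma adjusted p = 0.0593). The probe in between had -0.84 (SE 0.18, limma adjusted p = 0.108). The 3 Adamts2 probes thus had the same direction and differed in size.

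**Figure D4:**
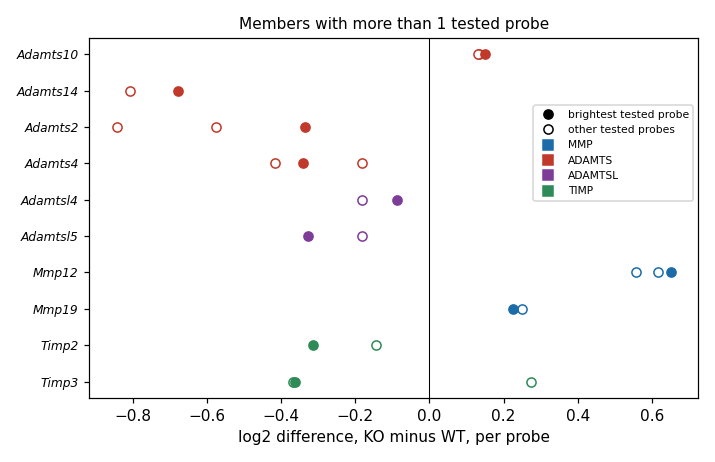
Difference in log2 signal, KO minus WT (x axis), of each tested probe for the 10 members with more than 1 tested probe (rows). Filled circles are the brightest tested probe. Probes had the same sign for 9 of the 10 genes, all except Timp3.

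The proteoglycanases of the ADAMTS family cut aggrecan and versican. Adamts15, one of them, had the largest difference of all members. It read -3.99, -4.79 and -4.40 on the KO arrays, against -2.29, -1.90 and -2.74 on the WT arrays (chr9:30707033-30707092, mm9). Its single probe was well above background on all 3 WT arrays and on 0 KO arrays, so that only a bound can be given: the mean KO level was at least 2.93-fold lower. The measured difference was -2.08 (SE 0.27, limma adjusted p = 0.0593), and this p rests in part on signals at background. Under normexp background correction with quantile normalization the difference was -1.15 and passed (limma adjusted p = 0.0461), and it passed with median centring (-2.11, limma adjusted p = 0.0481). These p-values rest in part on signals at background as well. Of 14 alternatives, Adamts15 passed in 4 and did not in 10. The latter include every fit leaving out 1 array (limma adjusted p = 0.0607 to 0.187). Without KO replicate 1 and WT replicate 3 the difference was -2.50 (limma adjusted p = 0.0934).

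Adamts1, a proteoglycanase gene induced in inflammation and ovulation, ran the other way. It read -0.99, -0.89 and -0.80 on the KO arrays, against -1.37, -1.14 and -1.10 on the WT arrays (chr16:85795044-85795103, mm9). The KO values all lay above the WT values, by 0.31 (SE 0.10, limma adjusted p = 0.230). Adamts9, whose protein cleaves versican, read -1.24, -1.17 and -0.83 on the KO arrays, against -0.84, -0.50 and -0.76 on the WT arrays. Its groups overlapped at 1 KO array, and the difference was -0.38 (SE 0.14, limma adjusted p = 0.277).

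The main aggrecanases of cartilage, Adamts4 and Adamts5, were not separated by their brightest probes. Adamts4 read 1.00, 0.95 and 1.26 on the KO arrays, against 1.09, 1.48 and 1.66 on the WT arrays (chr1:173190709-173190768, mm9), a difference of -0.34 (SE 0.16, limma adjusted p = 0.387). This was -0.22 without WT replicate 3 and -0.18 without both arrays with Xist signal, but -0.50 without WT replicate 1 and -0.44 without KO replicate 3. The other Adamts4 probes had -0.42 (limma adjusted p = 0.199) and -0.18 (limma adjusted p = 0.719), the first with separated groups. Adamts5 read -3.04, -3.74 and -3.42 on the KO arrays, against -3.45, -3.43 and -2.50 on the WT arrays (chr16:85899450-85899509, mm9). The difference of -0.27 (95% interval -0.98 to 0.43, limma adjusted p = 0.718) rested on WT replicate 3, since it was 0.04 without that array. Of the proteoglycans these enzymes cut, Acan and Ncan were not tested, Vcan differed by 0.36 (SE 0.16, limma adjusted p = 0.357) and Bcan by -1.51 (SE 0.39, limma adjusted p = 0.158).

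Adamts12, whose protein cleaves the cartilage oligomeric matrix protein, read -2.27, -1.87 and -1.80 on the KO arrays, against -1.28, -1.29 and -1.79 on the WT arrays (chr15:11278486-11278545, mm9). The groups almost met at the highest KO and the lowest WT array, and the difference was -0.53 (SE 0.18, limma adjusted p = 0.254). Adamts7, whose protein is known to cleave the same substrate, had -0.03 (95% interval -0.28 to 0.23, limma adjusted p = 0.931). Adamts6 and Adamts10, which act on fibrillin-rich microfibrils, had -0.16 (95% interval -0.80 to 0.48) and 0.15 (95% interval -0.09 to 0.39).

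Adamts18 and Adamts17 were not tested and are described here because of their values. Of 4 Adamts18 probes, the 2 nearest the 3′ end had dim, one-sided signals. At chr8:116222720-116222779 (mm9) the arrays read -6.08, -5.83 and -5.74 in KO, against -4.57, -4.26 and -4.54 in WT. The KO arrays lay below all WT arrays there, although only 2 WT arrays and 0 KO arrays were well above background. The neighbouring probe read -6.28, -6.18 and -5.52 in KO, against -4.57, -4.17 and -4.44 in WT, with 1 WT array well above background. The third probe had overlapping groups, and the fourth was at background on every array. Of 4 Adamts17 probes, the one at chr7:74297448-74297507 (mm9) read -5.11, -5.45 and -5.41 in KO, against -4.30, -3.16 and -3.58 in WT, with 0 KO arrays and 2 WT arrays well above background. Its KO arrays also lay below all WT arrays, while the other Adamts17 probes had overlapping groups.

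The ADAMTSL genes, whose products bind microfibrils without cutting, had negative differences at all 6 tested probes, against 43.8% of all tested probes. These 6 probes stand for 4 genes. None had an unadjusted limma p under 0.05, where 7.28% of all tested probes read lower and 8.24% higher. Adamtsl3 read -4.60, -3.86 and -4.73 on the KO arrays, against -3.91, -3.84 and -3.90 on the WT arrays, and was above background on 0 KO arrays. The difference was -0.51 (SE 0.22, limma adjusted p = 0.335), with no bound on the fold above 1. Adamtsl1 differed by -0.18 (SE 0.19, limma adjusted p = 0.717) and was above background on 1 KO array. Single arrays moved this value, which was -0.01 when KO replicate 2 was dropped, -0.39 when KO replicate 1 was and -0.11 when WT replicate 3 was. Adamtsl5 had -0.33 (SE 0.19, limma adjusted p = 0.477). Adamtsl4, linked to the zonular fibres of the lens in humans, had -0.09 (95% interval -0.46 to 0.29, limma adjusted p = 0.845).

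Among the inhibitors, Timp1, Timp2 and Timp3 were bright and Timp4 was not above background. Timp1 read 6.65, 6.06 and 6.44 on the KO arrays, against 6.71, 6.63 and 6.64 on the WT arrays (chrX:20451675-20451733, mm9). KO replicate 2 was the low array and KO replicate 1 lay among the WT values. The difference was -0.28 (SE 0.15, 95% interval -0.63 to 0.08, limma adjusted p = 0.440). Dropping KO replicate 2 gave -0.12, whereas dropping KO replicate 1, an array with Xist signal, gave -0.41. The difference was -0.42 when both arrays with Xist signal were left out. Timp3, whose protein stays bound to the matrix and also inhibits ADAMTS enzymes, read 6.32, 5.59 and 6.23 on the KO arrays, against 6.23, 6.29 and 6.69 on the WT arrays (chr10:85811696-85811755, mm9). The groups overlapped, with a difference of -0.36 (SE 0.22, limma adjusted p = 0.492), or -0.13 without KO replicate 2 and -0.50 without KO replicate 1. A nearby probe had -0.37 (SE 0.16), while a much dimmer probe further 5′ (starting at 85769407) had 0.28 (SE 0.18, limma adjusted p = 0.532).

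A list of 28 genes that activate, restrain or work beside these enzymes was read from the same fit, and 25 were tested. After adjustment 0 passed limma. At an unadjusted limma p under 0.05, 7 of the 25 read lower in KO, against 8.17% of all tested genes, and 1 read higher, against 6.59%. The median difference was 0.05. The proprotein convertase genes Pcsk6 and Pcsk5, whose products activate precursors by cleavage, had every KO value below the WT values, where 10.6% of all tested genes did. Pcsk6 read 2.39, 1.60 and 2.31 on the KO arrays, against 3.39, 3.98 and 3.59 on the WT arrays, with a difference of -1.55 (SE 0.25, limma adjusted p = 0.0749). Pcsk5 was above background on 0 KO arrays, so its mean level there was at least 1.52-fold lower than in WT (limma adjusted p = 0.0948). Furin, the convertase that activates MMP14, differed by 0.10 (SE 0.07, limma adjusted p = 0.548); it is named here with its values already known.

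Bmp1 encodes the procollagen C-proteinase, which removes the propeptide at the other end from Adamts2 and Adamts14. It read 3.53, 2.98 and 3.42 on the KO arrays, against 4.02, 3.76 and 3.85 on the WT arrays. The groups did not overlap, and the difference was -0.56 (SE 0.16, limma adjusted p = 0.179). The other tested Bmp1 probes had smaller differences of -0.31 (SE 0.08, limma adjusted p = 0.151) and -0.36 (SE 0.09, limma adjusted p = 0.146). The genes of the enhancer proteins of the C-proteinase, Pcolce (-0.41, SE 0.14, limma adjusted p = 0.255) and Pcolce2 (-0.66, SE 0.21, limma adjusted p = 0.217), were chosen for mention with their values already known. They also had every KO value below the WT values, where 10.6% of all tested genes did. Reck, which encodes a membrane-anchored inhibitor of MMPs, had -0.50 (SE 0.16, limma adjusted p = 0.217). Ctsk, the remaining gene of the list that read lower by unadjusted p, had -0.40 (SE 0.14, limma adjusted p = 0.238) with overlapping groups. It too is named with its values already known. The member of the list that read higher was Adam8, a membrane metalloproteinase gene of leukocytes, with 0.31 (SE 0.07, limma adjusted p = 0.131).

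**Figure D5:**
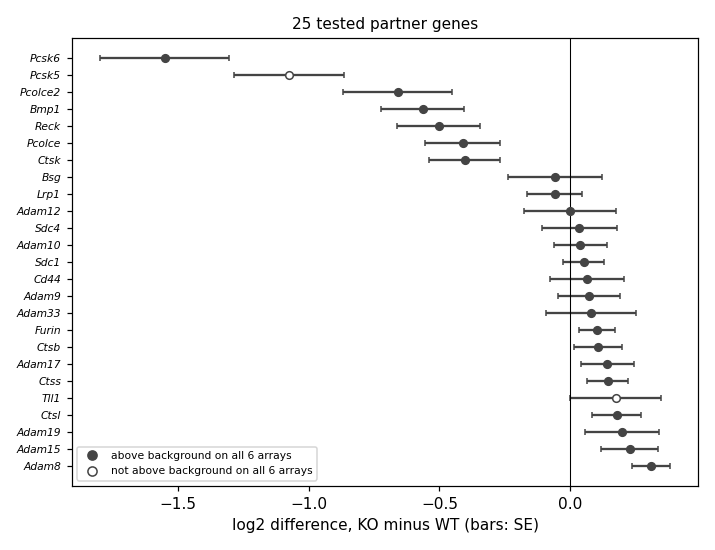
Difference in log2 signal, KO minus WT (x axis, bars are the SE from limma, n = 3 arrays a group), for the 25 tested partner genes (rows). Open circles mark genes not above background on all 6 arrays. Differences run from -1.55 for Pcsk6 to 0.31 for Adam8.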

How the data were processed

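Total RNA of 3 KO and 3 WT samples was hybridised to 1-colour Agilent arrays. The deposited intensity values are processed, mean and background signals from Agilent Feature Extraction 10.7.1.1, per the file headers, with probe positions on mm9, while the submitters' processing notes name version 9.1. The description field and extraction protocol speak of human blood; titles, source names and organism, all mouse, were followed. The authors' deposited table holds log2 values whose columns correlated with their own scanner values at r above 0.9999 (lowest 0.99994) and share a median of 6.15. Its rank-matched values are nearly identical between columns. Its scale and direction were thus settled, its exact normalization was not, and it served as an alternative.

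From the processed intensity, log2 minus the array's 75th percentile over non-control spots was taken, leaving out 49 to 131 outlier spots per array. Each member probe had 1 spot. Testing needed a probe to be well above background in all samples of KO, of WT or of both, with at least 2 values in each. Differences were fitted with limma 3.58.1 in R 4.3.3 (lmFit and eBayes, two-sided, group only, 4 residual and 2.65 prior degrees of freedom, Benjamini-Hochberg over 28607 probes, threshold 0.05), after a test on simulated data. The number of arrays, 3 a group, limits the precision. For a bound on a fold, each array of the dim group was given its lowest signal well above background, or the probe's own signal where higher, and their mean was set against the bright group's mean. Such a bound is on group means and takes no account of the spread between arrays. Members, gene lists and tests were chosen with earlier results of these data known. Named genes are a fixed set of 18, every member with a probe at an unadjusted p under 0.05, and the extremes of each family, plus up to 4 partners per direction; Mmp17, Mmp23, Mmp27, Adamts6, Adamts7, Adamts10, Adamts17, Adamts18, Adamtsl5, Vcan and Bcan were added, with their values known, to account for all members and the substrates. Probes were named through RefSeq (GRCm38.p6) by accession (32994), symbol (10224) or synonym (520). Alternatives covered background, normalization, filters, the variance prior, the replicate number and left-out arrays. Slide and scan were not modelled, since there was 1 of each. The annotation of exons was not used here.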

Additional observations from a re-analysis of the deposited data

How the results depend on the processing

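No alternative was run for the slide or the scan, since all arrays shared 1 of each. Over all probes, 17 passed limma in the reported fit, 220 with a variance trend, 215 with normexp and quantile normalization, 101 after centring on the median, 9 with probes above background on all 6 arrays, 7 without the 2 arrays with Xist signal, 0 without the filter on dim probes and 0 with the replicate block. Leaving out 1 array at a time gave 0 to 12. The cause of these shifts was not tested. Among member probes, 0 passed in the reported fit, while 2 passed with normexp and quantile normalization (Adamts15 and Mmp2), 2 with a variance trend (the same genes) and 1 with median centring (Adamts15). Averaging a gene's probes, with genes in place of probes tested, also passed Adamts15 (adjusted p = 0.0466). None (0) passed in the other alternatives, which include leaving out each array (0 to 0). Member probes at an unadjusted p under 0.05 numbered 14 lower (13 to 15 leaving out 1 array, 11 without the 2 arrays with Xist signal) and 5 higher (4 to 7 leaving out 1 array). Without the filter on dim probes 30 were higher, and the median difference over all probes was then 0.13, against 0.02 in the reported fit, while that over all member probes was -0.03. That fit takes in the 45 of 103 member probes above background on no array. Since background lay higher on KO arrays on this scale, the 30 probes are not a count of members raised in KO. Of the 24 named members tested, 21 kept their sign under every alternative run for them. The exceptions changed sign when 1 array was left out: Mmp13 (-0.030 without KO replicate 2, range -0.030 to 0.56), Adamts5 (0.037 without WT replicate 3, range -0.45 to 0.037) and Adamtsl4 (0.030 without KO replicate 2 and 0.027 without WT replicate 3, range -0.20 to 0.030). Same-numbered KO and WT arrays did not deviate together (r of 0.06, 0.15 and -0.03 for numbers 1 to 3), and KO replicate 1 correlated best with WT replicate 3 (0.18), so the numbers were not taken to pair the samples, and with the replicate block 17 member probes read lower in KO and 5 read higher, by unadjusted p. Background on the arrays limits what can be said of the 15 genes never above it.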

Other observations

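Mmp16 and Mmp1a each had a probe with a signal on WT replicate 2 alone. The Mmp16 probe read -0.38 there, against -6.73 and -6.53 on the other WT arrays and -6.33 to -5.83 on the KO arrays. The Mmp1a probe read -1.62 there and between -6.76 and -5.85 on the other 5 arrays. Every array had such probes, with a level above -2 on that array and below -5 on the others: 60, 54 and 77 on KO replicates 1, 2 and 3 and 106, 104 and 101 on WT replicates 1, 2 and 3. These 2 member probes each rest on 1 spot, and the source of the signals was not tested.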
